A study of Homo sapiens with 6 samples.

Results

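The report concerns 8 human genes for channels and scramblases that calcium inside the cell opens, or for members of the same families. ANO1 and KCNN4 were selected on their strong fall in these same libraries, so their difference between the groups is given as a description and without a test. The other 6 (ANO6, ANO9, ANO10, KCNMA1, TRPM4 and BEST1) were listed with them as related calcium-activated chloride, potassium and cation channels and scramblases. They are 8 of the 58884 gene identifiers counted, and all 8 passed the filter on low counts that left 15804 genes.

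Calcium-activated channels turn a rise in cytosolic calcium into a change in membrane voltage or in the movement of salt and water. Inositol trisphosphate (IP3) receptors such as ITPR3 release calcium from the endoplasmic reticulum and so supply the trigger in many secretory cells. In gut epithelium, chloride channels pass chloride into the lumen, and potassium channels hold the membrane negative so that this movement can go on. Scramblases of the anoctamin family instead move phospholipids between the leaflets of a membrane.

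All libraries were made from SW480, a human colorectal cancer line in wide use, grown as liver metastases after injection into the portal circulation of immunodeficient NSG mice. The 3 sgITPR3 libraries are from cells given a guide RNA against ITPR3, whose loss was checked by the submitters on Western blots, and the 3 sgCtrl libraries are from cells given a control guide RNA. Tumour cells of both groups were recovered from digested livers by density gradient and depletion of mouse cells, so both had been dissociated before RNA was taken. The labels say neither whether each library came from its own mouse nor whether the lines were pools or clones, so a p-value here speaks of the spread among libraries, which may be technical.

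Each library held 19140055 to 23943797 counts, made from tags at the 3' ends of polyadenylated transcripts. Levels are given as CPM (counts divided by the scaled library size in units of 1e6), and 1 count is 0.0405 to 0.0538 CPM. A transcript gives about the same number of tags whatever its length, so CPM were not divided by length. ITPR3 itself was at 39.4, 41.0 and 46.2 CPM in the sgITPR3 libraries, against 107.5, 93.9 and 94.2 CPM in the sgCtrl libraries, so its RNA was 2.34-fold lower but still present (edgeR adjusted p = 1.28e-07). Of the 8 colorectal epithelial markers, 2 rose, 3 fell, 2 did not pass and KRT20, with at most 9 counts in any library, could not be tested. Among all genes tested, 11.9% were called lower and 11.6% higher. VIL1, the villin gene, rose to 36.7 ± 1.19 CPM in sgITPR3, against 3.18 ± 0.821 CPM in sgCtrl (SD, n = 3 each, edgeR adjusted p = 1.30e-09). CDX2, an intestinal transcription factor gene, rose to 59.8 ± 5.396 CPM in sgITPR3, against 47.2 ± 4.18 CPM in sgCtrl (edgeR adjusted p = 0.0115), a call that ended without sgITPR3 replicate 1 (0.0598) or 2 (0.0617). KRT19, a keratin gene, fell to 303 ± 13.6 CPM in sgITPR3, against 535 ± 68.3 CPM in sgCtrl (edgeR adjusted p = 1.04e-05). EPCAM fell to 307 ± 37.4 CPM in sgITPR3, against 382 ± 39.3 CPM in sgCtrl (edgeR adjusted p = 0.0249), a call that ended without sgITPR3 replicate 3 (0.106) or sgCtrl replicate 1 (0.0519) or 2 (0.0562). The 8 colorectal markers together summed to 2025 to 2079 CPM in the sgITPR3 libraries and 2410 to 2798 CPM in the sgCtrl libraries, and the part of this in the levels below was not tested. The 8 hepatocyte markers summed to 147 to 294 CPM in the sgITPR3 libraries and 66.0 to 246 CPM in the sgCtrl libraries, with sgCtrl replicate 2 the highest of its group. SERPINA1, 1 of the 8, fell to 13.9 ± 2.17 CPM in sgITPR3, against 43.3 ± 3.86 CPM in sgCtrl (edgeR adjusted p = 1.51e-07). The other 7, split off after the values were seen, summed to 277, 182.5 and 134 CPM in the sgITPR3 libraries, against 43.2, 200.3 and 27.2 CPM in the sgCtrl libraries.

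ANO1 was the most abundant of the 8 genes in both groups and was far lower in sgITPR3 than in sgCtrl. ANO1 (ENSG00000131620, chromosome 11, 70078302 to 70189528, plus strand, GRCh38) encodes TMEM16A, the calcium-activated chloride channel of secretory epithelia and of the pacemaker cells of the gut wall. Its level was 93.5, 87.2 and 90.1 CPM in the sgITPR3 libraries, against 263, 236 and 239 CPM in the sgCtrl libraries. The groups lay far apart, with the 3 sgITPR3 libraries close together and well below every sgCtrl library. The means were 90.3 ± 3.19 CPM in sgITPR3 and 246 ± 14.98 CPM in sgCtrl (SD, n = 3 each), a 2.73-fold lower level (log2 fold change -1.45, SE 0.070).

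KCNN4 showed the larger fold difference of the 2 genes picked for their fall. It encodes KCa3.1, the intermediate-conductance potassium channel that opens when calcium binds its calmodulin subunits (ENSG00000104783, chromosome 19, 43766533 to 43781261, minus strand). Its level was 11.5, 11.4 and 14.7 CPM in the sgITPR3 libraries, from 266, 281 and 285 counts. In the sgCtrl libraries it was 62.7, 59.0 and 58.7 CPM, from 1165, 1186 and 1100 counts. The SD was 15.1% of the mean in sgITPR3 and 3.66% in sgCtrl, and no sgITPR3 library came near a sgCtrl one. The mean of 12.5 ± 1.88 CPM in sgITPR3 against 60.1 ± 2.20 CPM in sgCtrl is 4.82-fold lower (log2 fold change -2.27, SE 0.102).

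KCNMA1, the other potassium channel of the set, also fell. It encodes the pore of the large-conductance (BK) channel, which opens with both calcium and depolarisation (ENSG00000156113, chromosome 10, 76869601 to 77638369, minus strand). Its level was 59.0, 70.0 and 62.2 CPM in the sgITPR3 libraries, against 97.6, 93.4 and 111 CPM in the sgCtrl libraries. The groups did not overlap, and the means of 63.8 ± 5.65 CPM in sgITPR3 and 101 ± 9.37 CPM in sgCtrl differ 1.58-fold (log2 fold change -0.66, SE 0.085, edgeR adjusted p = 6.54e-05). In a bulk sample, fewer cells that use a gene and less RNA per cell cannot be told apart.

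The promoter windows of the 3 genes with the lowest fold changes of the set are shown for the sequence before their starts. Windows run from 250 bases before to 50 bases after a start, 5' to 3' on the gene's strand, from RefSeq on GRCh38.p14, and 6 of the 8 genes had one. Capitals mark any match, on either strand, to the letters of an AP-1 site (TGANTCA), a cyclic AMP response element (TGACGTCA), a kappaB site (GGGANTTCC), or a STAT site (TTCNNNGAA). They also mark the NFAT core (GGAAA), the GC box of Sp-family factors (GGGCGG), the CCAAT box, searched by the letters of its name, and the TATA box (TATAAA). KCNMA1 has a window at its outer start and 1 at an inner start.

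ANO1, chr11:69985657-69985956, plus strand: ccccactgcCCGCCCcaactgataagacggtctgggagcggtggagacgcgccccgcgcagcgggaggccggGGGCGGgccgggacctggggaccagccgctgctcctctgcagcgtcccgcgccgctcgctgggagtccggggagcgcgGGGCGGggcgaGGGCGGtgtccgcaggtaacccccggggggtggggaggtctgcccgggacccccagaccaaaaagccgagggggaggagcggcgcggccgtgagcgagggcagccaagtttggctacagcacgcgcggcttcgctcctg
KCNN4, chr19:43780924-43781223, minus strand: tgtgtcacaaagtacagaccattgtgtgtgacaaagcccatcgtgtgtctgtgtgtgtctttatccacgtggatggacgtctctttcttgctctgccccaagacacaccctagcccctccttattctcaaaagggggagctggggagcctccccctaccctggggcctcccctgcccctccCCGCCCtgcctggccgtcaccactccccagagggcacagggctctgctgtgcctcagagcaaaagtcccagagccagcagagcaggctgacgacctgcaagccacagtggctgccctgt
KCNMA1 outer start, chr10:77637759-77638058, minus strand: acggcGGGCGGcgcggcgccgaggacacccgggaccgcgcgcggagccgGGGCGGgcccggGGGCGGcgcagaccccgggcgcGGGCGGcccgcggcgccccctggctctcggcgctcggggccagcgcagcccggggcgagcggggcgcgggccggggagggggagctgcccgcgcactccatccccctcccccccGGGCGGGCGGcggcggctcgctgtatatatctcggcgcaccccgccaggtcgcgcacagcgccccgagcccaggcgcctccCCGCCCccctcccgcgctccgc
KCNMA1 inner start, chr10:77350712-77351011, minus strand: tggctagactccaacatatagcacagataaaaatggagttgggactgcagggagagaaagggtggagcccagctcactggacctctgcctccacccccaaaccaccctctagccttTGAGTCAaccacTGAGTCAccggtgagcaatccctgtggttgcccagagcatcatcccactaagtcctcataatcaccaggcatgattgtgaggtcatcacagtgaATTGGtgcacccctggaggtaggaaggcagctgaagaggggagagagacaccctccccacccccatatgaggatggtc

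The windows differed in base composition and in the letters they held. The ANO1 window was 76.0% G or C with 4 GC boxes, the outer KCNMA1 window 85.7% with 7 GC boxes of which 2 overlap, and the KCNN4 window 60.7% with 1. The inner KCNMA1 window held 2 AP-1 matches and 1 CCAAT box. Of the 35116 windows of this kind in the table, 45.0% hold a GC box, 7.71% an AP-1 match and 34.6% a CCAAT box. A kappaB match, found in 1.85% of all windows, a STAT match (7.66%), a cyclic AMP response element (1.85%), an NFAT core (61.2%) or a TATA box (11.5%) was in none of the 4.

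A match is a run of letters, and nothing here measured binding. The ANO1 window lies 92.4 kb before the start of the gene in GENCODE 29 and the inner KCNMA1 window 288 kb after it. Tags from the 3' end do not show which start was used, so the windows cannot be tied to the levels.

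ANO10 was the member that rose. It encodes an anoctamin whose inherited loss causes a cerebellar ataxia (ENSG00000160746, chromosome 3, 43354859 to 43691594, minus strand). Levels were 26.4, 30.1 and 30.2 CPM in the sgITPR3 libraries and 18.8, 21.7 and 22.1 CPM in the sgCtrl libraries, with every sgITPR3 library above every sgCtrl one. The means were 28.9 ± 2.17 CPM and 20.8 ± 1.81 CPM in the same order (log2 fold change 0.47, SE 0.098, edgeR adjusted p = 0.00320). Exons of ANO10 overlap exons of ABHD5 on the opposite strand, which was at 26.8 CPM in sgITPR3 and 33.3 CPM in sgCtrl. No source used here says whether counting used strand, so reads of overlapping genes cannot be told apart.

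ANO6 did not pass the test although its groups lay apart. It encodes TMEM16F, the scramblase that exposes phosphatidylserine on activated platelets and whose loss causes Scott syndrome. Its level was 58.9, 60.6 and 62.0 CPM in the sgITPR3 libraries, against 68.5, 63.3 and 78.4 CPM in the sgCtrl libraries (chromosome 12, 45215987 to 45440404). The log2 fold change was -0.21 with an SE of 0.082 (edgeR adjusted p = 0.0755). The lowest sgCtrl library exceeded the highest sgITPR3 library by little, and the sgCtrl libraries were the more spread. Without sgCtrl replicate 2 the log2 fold change was -0.28 and passed (edgeR adjusted p = 0.0162). With ALB, the hepatocyte albumin transcript, added to the model as a covariate it was -0.06 (edgeR adjusted p = 0.741).

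ANO9, another anoctamin, did not separate the groups. Its level was 15.9, 15.7 and 11.7 CPM in the sgITPR3 libraries, against 16.0, 16.7 and 13.0 CPM in the sgCtrl libraries (chromosome 11, 417933 to 442011). Replicate 3 was the lowest library in each group. The log2 fold change was -0.07 (SE 0.137, edgeR adjusted p = 0.749), and it was 0.05 without sgITPR3 replicate 3.

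TRPM4 and BEST1 were the scarcest of the 8 genes, and neither passed. TRPM4 encodes a cation channel that lets sodium in and depolarises the cell when calcium rises (chromosome 19, 49157741 to 49211836). Its counts were 87, 83 and 98 in the sgITPR3 libraries and 62, 74 and 48 in the sgCtrl libraries, or 3.76, 3.36 and 5.05 CPM against 3.33, 3.68 and 2.56 CPM. These levels overlap (edgeR adjusted p = 0.316, log2 fold change 0.34, SE 0.228). BEST1 encodes bestrophin 1, a calcium-activated chloride channel best known from the retinal pigment epithelium (chromosome 11, 61949821 to 61965515). It had only 21, 36 and 10 counts in the sgITPR3 libraries and 1, 13 and 5 counts in the sgCtrl libraries (edgeR adjusted p = 0.0813, log2 fold change 1.55, SE 0.612).

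The value of BEST1 is uncertain for further reasons. Its exons overlap those of FTH1, the ferritin heavy chain gene on the opposite strand, which was at 444 CPM in sgITPR3 and 412 CPM in sgCtrl. Its highest sgCtrl count fell in replicate 2, the library of that group with the most hepatocyte RNA. Without that library the log2 fold change was 2.55 and passed (edgeR adjusted p = 0.0124), as it did without a low-count filter (1.55, edgeR adjusted p = 0.0300), and with ALB in the model it was 0.76 (edgeR adjusted p = 0.522). The part of FTH1 reads in these values was not tested.

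Of the 6 genes not picked for their fall, 1 was called lower (KCNMA1), 1 was called higher (ANO10) and 4 did not pass. Over all genes tested 23.5% were called, 11.9% lower and 11.6% higher, so 2 of 6 is close to what the rest of the table gives. Groups also failed to overlap in many genes: sgITPR3 lay wholly below sgCtrl in 19.7% of the genes tested and wholly above in 19.6%.

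**Figure D1:**
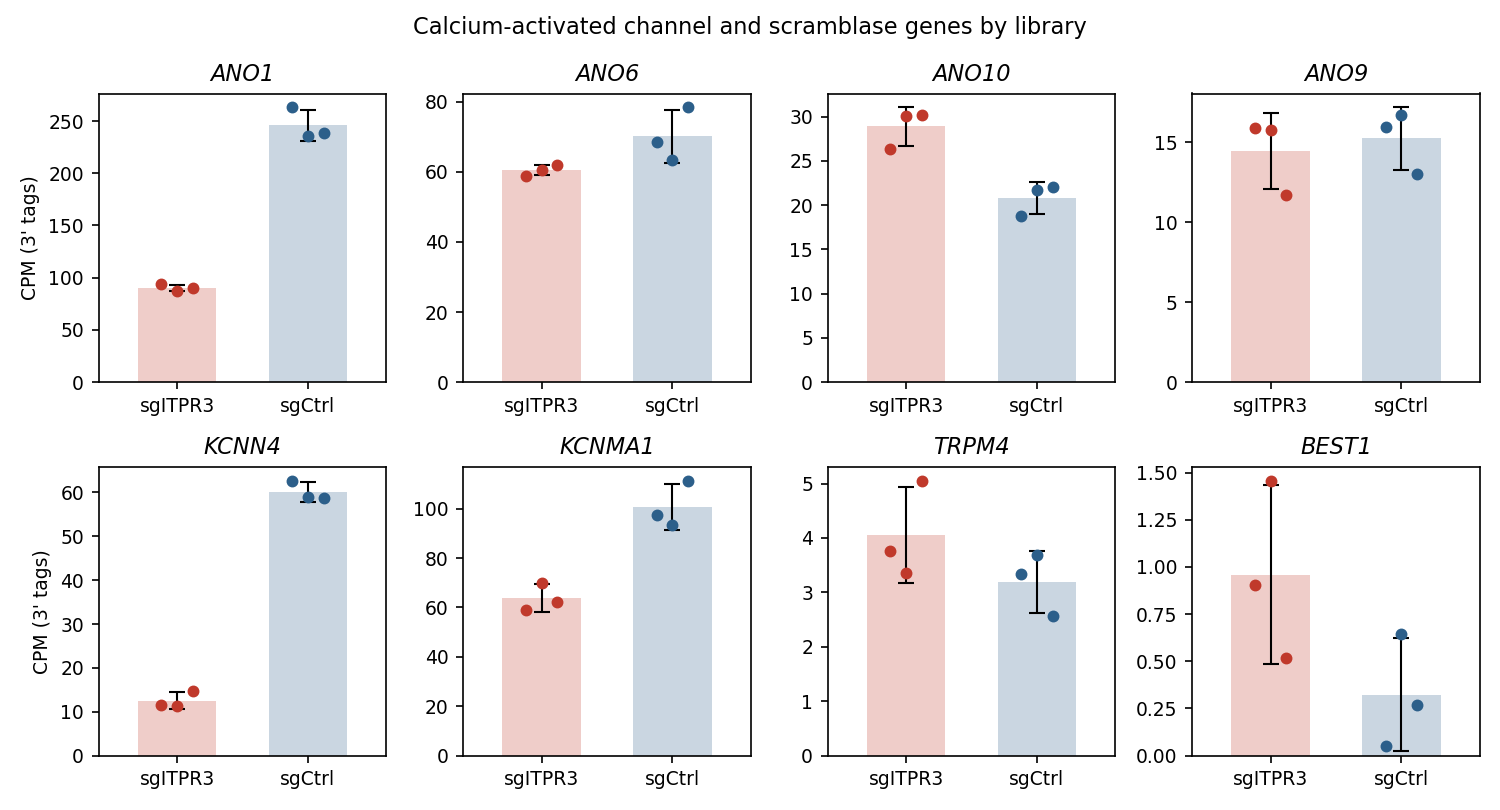
Levels of the 8 genes in CPM on linear axes, 1 panel per gene with its own scale, sgITPR3 left of sgCtrl. Points are libraries, bars are group means and error bars are SD (n = 3 each). ANO1 averages 90.3 CPM in sgITPR3 and 246 CPM in sgCtrl, KCNN4 12.5 and 60.1 CPM in the same order, and ANO9, TRPM4 and BEST1 overlap between groups.

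The order of the levels differed between the groups in the place of KCNN4. In sgITPR3 the order was ANO1, KCNMA1, ANO6, ANO10, ANO9, KCNN4, TRPM4 and BEST1, and neither KCNMA1 and ANO6 nor ANO9 and KCNN4 were separated by their libraries. In sgCtrl it was ANO1, KCNMA1, ANO6, KCNN4, ANO10, ANO9, TRPM4 and BEST1, with each gene above the next in every library of the group. KCNN4 was therefore the fourth gene in sgCtrl and the sixth in sgITPR3. How well each transcript end was captured was not tested.

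The make-up of the anoctamin family changed with ANO1. ANO1 held 43.2%, 40.4% and 41.4% of all tags of the 10 anoctamin genes in the sgITPR3 libraries, against 69.2%, 66.8% and 65.2% in the sgCtrl libraries. The 10 genes together summed to 217 ± 0.941 CPM in sgITPR3 and 367 ± 13.7 CPM in sgCtrl (SD, n = 3 each). ANO6 held 27.9% ± 0.642 of the tags in sgITPR3 and 19.1% ± 1.99 in sgCtrl, and ANO10 13.3% ± 0.992 and 5.70% ± 0.670 in the same order. A share also rises when the total falls. The level of ANO6 itself was lower in sgITPR3 (60.5 CPM, against 70.0 CPM in sgCtrl), while that of ANO10 was higher (28.9 against 20.8 CPM). Among the calcium-activated potassium channels (KCNMA1 and KCNN1 to KCNN4), KCNN4 held 15.9% ± 2.45 of the tags in sgITPR3 and 37.0% ± 2.43 in sgCtrl. These shares contain the values on which ANO1 and KCNN4 were picked and carry no test.

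**Figure D2:**
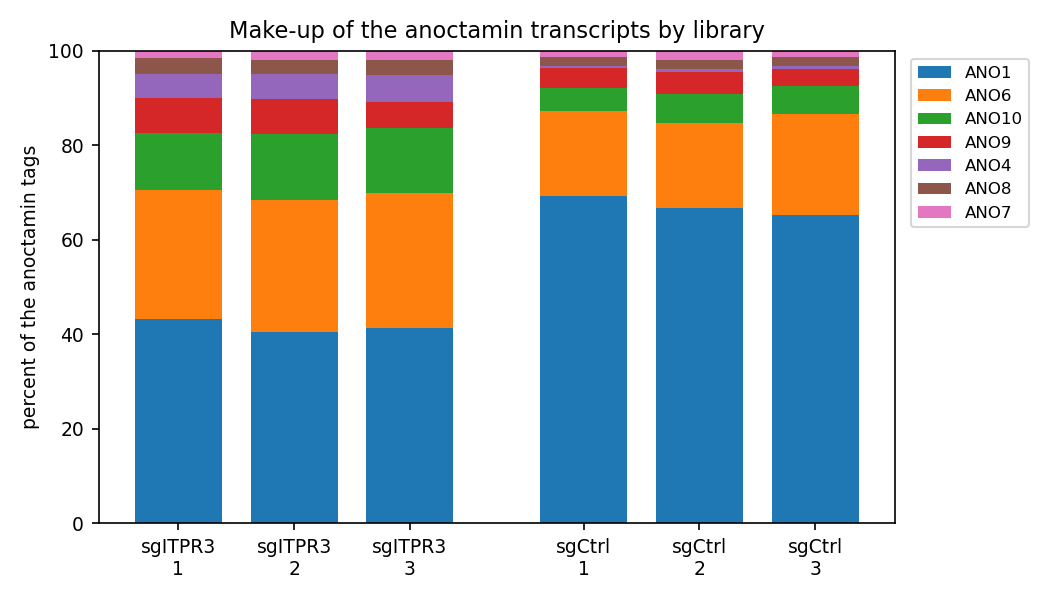
Share of each anoctamin gene in the anoctamin tags of a library, in percent on a linear axis, with 1 stacked bar per library and the sgITPR3 libraries on the left. ANO1 takes 40.4% to 43.2% in sgITPR3 and 65.2% to 69.2% in sgCtrl. ANO2 is too scarce to be drawn, and ANO3 and ANO5 had no count.

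Of the 6 other anoctamins, ANO4 was the 1 that passed, and it rose. It was at 11.01, 11.5 and 12.4 CPM in the sgITPR3 libraries, against 2.15, 2.04 and 2.08 CPM in the sgCtrl libraries, from 39 to 41 counts in each sgCtrl library. The groups lay far apart, and the level in sgITPR3 was 5.55-fold higher (edgeR adjusted p = 7.42e-08, log2 fold change 2.47, SE 0.159). ANO7 was at 3.74 ± 0.633 CPM in sgITPR3 and 5.49 ± 0.892 CPM in sgCtrl and did not pass (edgeR adjusted p = 0.0571), though limma-voom (adjusted p = 0.0486) and a fit with no low-count filter (edgeR adjusted p = 0.0454) called it lower. ANO8 was at 6.96 ± 0.467 CPM and 6.83 ± 0.0993 CPM in the same order. ANO2, ANO3 and ANO5 were too low to test.

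The further calcium-activated channels were scarce. Of 8 such genes, 3 could be tested and 0 passed with edgeR, with DESeq2 or with limma-voom, and 0 had an unadjusted p under 0.05. The 3 were KCNN3, TRPM2 and BEST4. TRPM2, a cation channel, was at 8.33 ± 1.03 CPM in sgITPR3 and 9.75 ± 1.35 CPM in sgCtrl, and KCNN3, a small-conductance potassium channel, at 1.997 ± 0.309 CPM and 1.58 ± 0.174 CPM in the same order. CLCA1, CLCA2 and CLCA4, whose products act on chloride currents, had no count in any library.

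Genes for auxiliary subunits of the BK channel were next, since BK channels differ between tissues by the subunits that join the KCNMA1 pore. Of 8 genes, 4 could be tested, of which 2 fell and 2 did not pass, where 11.9% of all genes tested were lower. The 2 that fell encode leucine-rich repeat proteins of the gamma class, which let the channel open at more negative voltages. LRRC55 was at 3.97, 6.23 and 6.86 CPM in the sgITPR3 libraries, against 17.4, 18.9 and 27.7 CPM in the sgCtrl libraries (log2 fold change -1.91, SE 0.200, edgeR adjusted p = 9.81e-06), with no overlap. LRRC26 was at 2.07, 1.46 and 2.58 CPM against 2.44 to 4.32 CPM in sgCtrl, which overlap (log2 fold change -0.84, edgeR adjusted p = 0.0441). Its call ended with ALB in the model (edgeR adjusted p = 0.593) and without sgITPR3 replicate 1 (0.0979) or 2 (0.181) or sgCtrl replicate 1 (0.133) or 3 (0.151). The beta subunit genes KCNMB4 and KCNMB3 had log2 fold changes of 0.02 and -0.16 and did not pass.

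Regulators of the KCNN4 channel showed small differences in both directions. Of 8 genes, 1 rose, 2 fell and 5 did not pass, where 11.6% of all genes tested were higher and 11.9% lower. CALM2 and CALM3 encode the same calmodulin protein, which serves KCNN4 as its calcium sensor. CALM3 rose (267 ± 20.5 CPM in sgITPR3 and 207 ± 14.0 CPM in sgCtrl, edgeR adjusted p = 0.00283), and its call ended with ALB in the model (edgeR adjusted p = 0.0646). CALM2 was at 569 ± 16.4 CPM in sgITPR3 and 634 ± 43.5 CPM in sgCtrl and did not pass (edgeR adjusted p = 0.117), though it did without sgCtrl replicate 2 (-0.21, edgeR adjusted p = 0.0348). Calmodulin genes have near-identical pseudogene copies, and whether reads were shared with them was not tested.

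MTMR6 and TRIM27, whose products restrain KCNN4 in T cells, fell. MTMR6, a lipid phosphatase, was at 21.8 ± 3.68 CPM in sgITPR3 and 29.4 ± 1.49 CPM in sgCtrl (edgeR adjusted p = 0.0129). Its call ended without sgCtrl replicate 3 (0.0505), without sgITPR3 replicate 3 (0.0538) and with ALB in the model (0.0851), all edgeR adjusted p. TRIM27, a ubiquitin ligase, was at 40.1 ± 2.63 CPM in sgITPR3 and 50.6 ± 2.10 CPM in sgCtrl (edgeR adjusted p = 0.00666, log2 fold change -0.34, SE 0.079).

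The ezrin, radixin and moesin genes encode proteins that tie membrane channels, ANO1 among them, to actin. Of the 3, EZR and MSN fell and RDX did not pass, where 11.9% of all genes tested were lower. EZR was at 228 ± 20.2 CPM in sgITPR3 and 324 ± 25.4 CPM in sgCtrl (log2 fold change -0.51, SE 0.080, edgeR adjusted p = 3.82e-04). MSN was at 204 ± 2.46 CPM and 265 ± 31.7 CPM in the same order (edgeR adjusted p = 0.00416), and its call ended with ALB in the model (-0.21, edgeR adjusted p = 0.125). RDX was at 327 ± 9.003 CPM in sgITPR3 and 310.4 ± 21.4 CPM in sgCtrl.

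Genes of intestinal chloride and fluid transport went both ways. Of 17 genes, 12 could be tested, of which 2 rose, 2 fell and 8 did not pass. Among all genes tested, 11.6% were higher and 11.9% lower. The median log2 fold change of the 12 was 0.12, against 0.00086 over all genes tested. SLC12A2, the cotransporter NKCC1 that loads the cell with chloride, was at 97.4, 97.8 and 92.3 CPM in the sgITPR3 libraries, against 62.2, 67.8 and 72.1 CPM in the sgCtrl libraries (log2 fold change 0.51, SE 0.073, edgeR adjusted p = 1.71e-04). All sgITPR3 libraries lay above all sgCtrl libraries.

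KCNE3, a partner of the KCNQ1 potassium channel, rose to 4.26 ± 0.360 CPM in sgITPR3, against 2.47 ± 0.479 CPM in sgCtrl (edgeR adjusted p = 0.0179). Its call ended without sgITPR3 replicate 1 (0.0641) or 3 (0.0569), without sgCtrl replicate 1 (0.0717) and with ALB in the model (0.0646). SLC26A9, a chloride transporter of epithelia, fell to 10, 14 and 2 counts in the sgITPR3 libraries, against 61, 65 and 62 counts in the sgCtrl libraries (log2 fold change -3.08, SE 0.391, edgeR adjusted p = 5.68e-05). SCNN1A, the alpha subunit of the epithelial sodium channel, fell to 1.38 ± 0.105 CPM in sgITPR3, against 4.57 ± 1.42 CPM in sgCtrl (edgeR adjusted p = 3.18e-04).

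ATP1B3, a beta subunit of the sodium pump, did not pass (log2 fold change -0.10). CFTR, the chloride channel of cyclic AMP-driven secretion, is named after its values were seen. It had 0, 3 and 0 counts in the sgITPR3 libraries and no count in the sgCtrl libraries, where a count of 0 allows 0.149 to 0.161 CPM by counting error alone.

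Anion channels opened by cell swelling are built of LRRC8 proteins. Of the 5 genes 2 fell and 3 did not pass (median log2 fold change -0.30), where 11.9% of all genes tested were lower. LRRC8A, the subunit every such channel needs, was at 56.8 ± 1.30 CPM in sgITPR3 and 70.0 ± 4.61 CPM in sgCtrl (edgeR adjusted p = 0.00779, log2 fold change -0.30, SE 0.072). LRRC8D was called lower (edgeR adjusted p = 0.0401), and its call ended with DESeq2 (adjusted p = 0.0526), with ALB in the model (0.514) and without sgITPR3 replicate 1 (0.125) or 2 (0.118) or sgCtrl replicate 1 (0.122) or 3 (0.123).

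Scramblase and flippase genes were listed because flippases undo what ANO6 does, returning phosphatidylserine to the inner leaflet. Of 14 genes, 10 could be tested, of which 2 rose and 8 did not pass, where 11.6% of all genes tested were higher. ATP11A, a flippase gene, rose. It was at 71.0, 74.8 and 62.2 CPM in the sgITPR3 libraries, against 30.9, 27.4 and 25.8 CPM in the sgCtrl libraries, 2.48-fold higher with no overlap (edgeR adjusted p = 1.82e-07, log2 fold change 1.31, SE 0.092). TMEM30A, the subunit that this flippase needs, and VMP1, an endoplasmic reticulum scramblase, did not pass (log2 fold changes 0.05 and 0.08).

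Of 12 potassium channel genes that calcium does not open directly, 8 could be tested, of which 1 rose, 1 fell and 6 did not pass. Among all genes tested, 11.6% were higher and 11.9% lower. KCNH2, which encodes the voltage-gated channel hERG, was at 8.64, 7.57 and 8.09 CPM in the sgITPR3 libraries, against 2.64, 3.03 and 1.98 CPM in the sgCtrl libraries (edgeR adjusted p = 2.23e-05, log2 fold change 1.66, SE 0.190). These groups lay far apart. KCNS3, a modifier of voltage-gated channels, was called lower (log2 fold change -0.63, edgeR adjusted p = 0.0131), a call that ended without sgCtrl replicate 1 (-0.42, edgeR adjusted p = 0.0709), without sgITPR3 replicate 2 (0.0535) and with ALB in the model (0.103). The 2-pore channel genes KCNK1 and KCNK6 did not pass.

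Over all these lists, 56 of 84 genes could be tested, of which 7 rose, 11 fell and 38 did not pass (median log2 fold change 0.03). That is 32.1% called, against 23.5% over all genes tested.

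**Figure D3:**
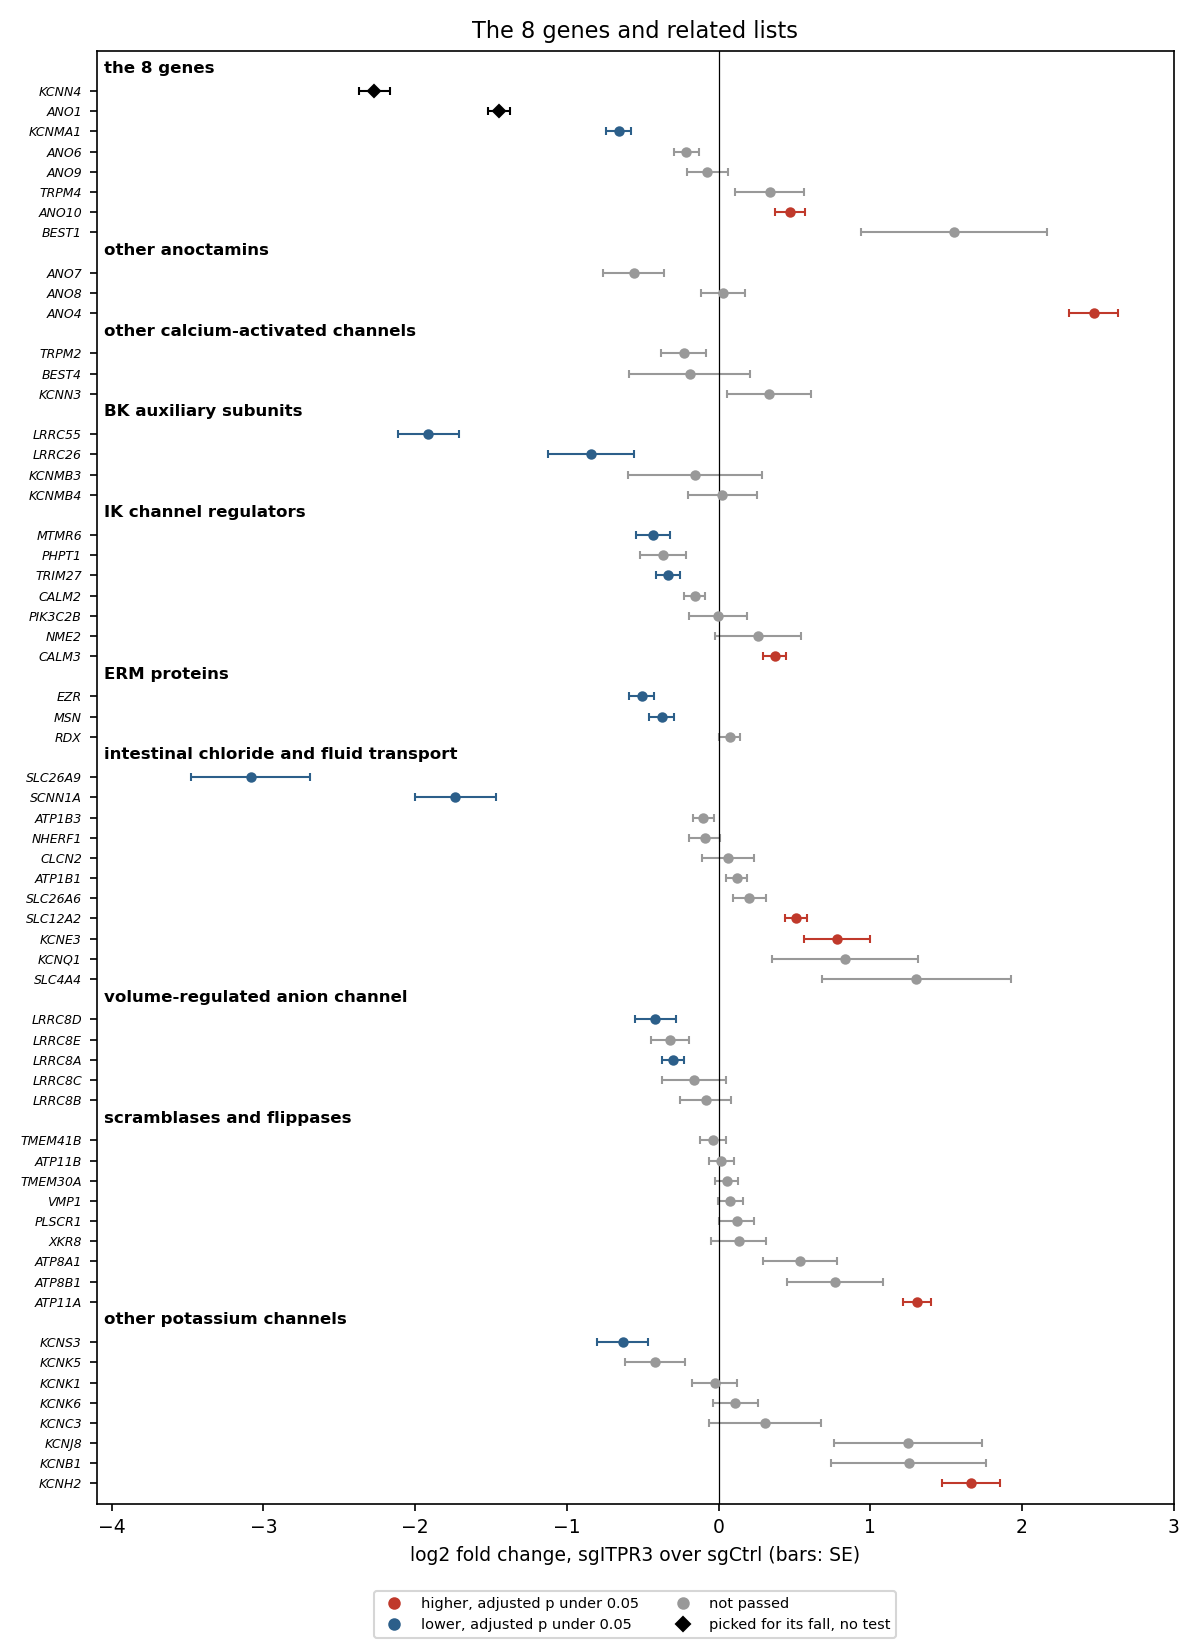
Log2 fold change of sgITPR3 over sgCtrl with its SE, for the 8 genes and for the reported genes of 9 lists of related channels and transporters, by list and from low to high. Black diamonds mark ANO1 (-1.45) and KCNN4 (-2.27), which carry no test. Red points passed as higher, blue as lower and grey did not pass. ANO4 stands furthest right at 2.47 and SLC26A9 furthest left at -3.08.

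ANO1, KCNN4 and KCNMA1 lie on different chromosomes, and the genes beside the first pair were read next. Of the 8 tested genes nearest to ANO1, 4 on each side, 4 were lower, 1 was higher and 3 did not pass, where 11.9% of all genes tested were lower and 11.6% higher. LINC02584, a long non-coding RNA gene on the opposite strand whose lower chromosomal end lies 5.87 kb from that of ANO1, was at 0.0901 ± 0.0116 CPM in sgITPR3 and 0.946 ± 0.221 CPM in sgCtrl (edgeR adjusted p = 6.43e-04), the sgITPR3 mean lying under the 0.121 to 0.155 CPM that 3 counts make in those libraries. An unnamed gene on that strand (ENSG00000254605, 70014858 to 70021059) was at 20.3 ± 1.95 CPM in sgITPR3 and 45.1 ± 5.73 CPM in sgCtrl (log2 fold change -1.16, SE 0.106, edgeR adjusted p = 2.43e-06). This gene and LINC02584 lie between the RefSeq start of ANO1 (69985907) and the start of ANO1 used here (70078302). ENSG00000255143, also called lower, lies within ANO1. Whether counting used strand is not known, and the part of ANO1 reads in the levels of these genes was not tested. Their falls are therefore not read as a trend of the region apart from ANO1.

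Protein-coding neighbours of ANO1 did not share one direction. FADD, the adaptor of death receptors, was at 42.0 ± 1.74 CPM in sgITPR3 and 57.7 ± 7.27 CPM in sgCtrl (log2 fold change -0.46, edgeR adjusted p = 0.00220), a call that ended with ALB in the model (edgeR adjusted p = 0.0541). FGF3, a fibroblast growth factor gene, was higher at 176 ± 15.6 CPM in sgITPR3 and 134 ± 4.49 CPM in sgCtrl (log2 fold change 0.39, edgeR adjusted p = 0.00188). PPFIA1, a liprin gene, was at 142 ± 7.87 CPM in sgITPR3 and 124 ± 5.14 CPM in sgCtrl (edgeR adjusted p = 0.0552), and it was called higher by DESeq2 (adjusted p = 0.0416) and by edgeR under a filter of 1 CPM in 3 libraries (adjusted p = 0.0398). The low transcript ENSG00000255143, which lies within ANO1 on the same strand, was called lower (edgeR adjusted p = 0.0416), and its call ended in the replicate block (0.0597) and without sgCtrl replicate 2 (0.206) or sgITPR3 replicate 1 (0.0811), 2 (0.127) or 3 (0.0907).

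Around KCNN4, 2 of the 8 nearest tested genes were lower and 6 did not pass, where 11.9% of all genes tested were lower. PLAUR, the urokinase receptor gene whose lower end lies 120.4 kb from that of KCNN4, was at 39.9 ± 1.90 CPM in sgITPR3 and 90.5 ± 4.97 CPM in sgCtrl (log2 fold change -1.18, SE 0.074, edgeR adjusted p = 5.76e-08). SMG9, a gene of nonsense-mediated decay that lies between them, was at 27.6 ± 1.28 CPM and 37.1 ± 2.12 CPM in the same order (log2 fold change -0.42, SE 0.084, edgeR adjusted p = 0.00218). On the other side LYPD5, ZNF283, ZNF45 and ZNF155 did not pass.

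**Figure D4:**
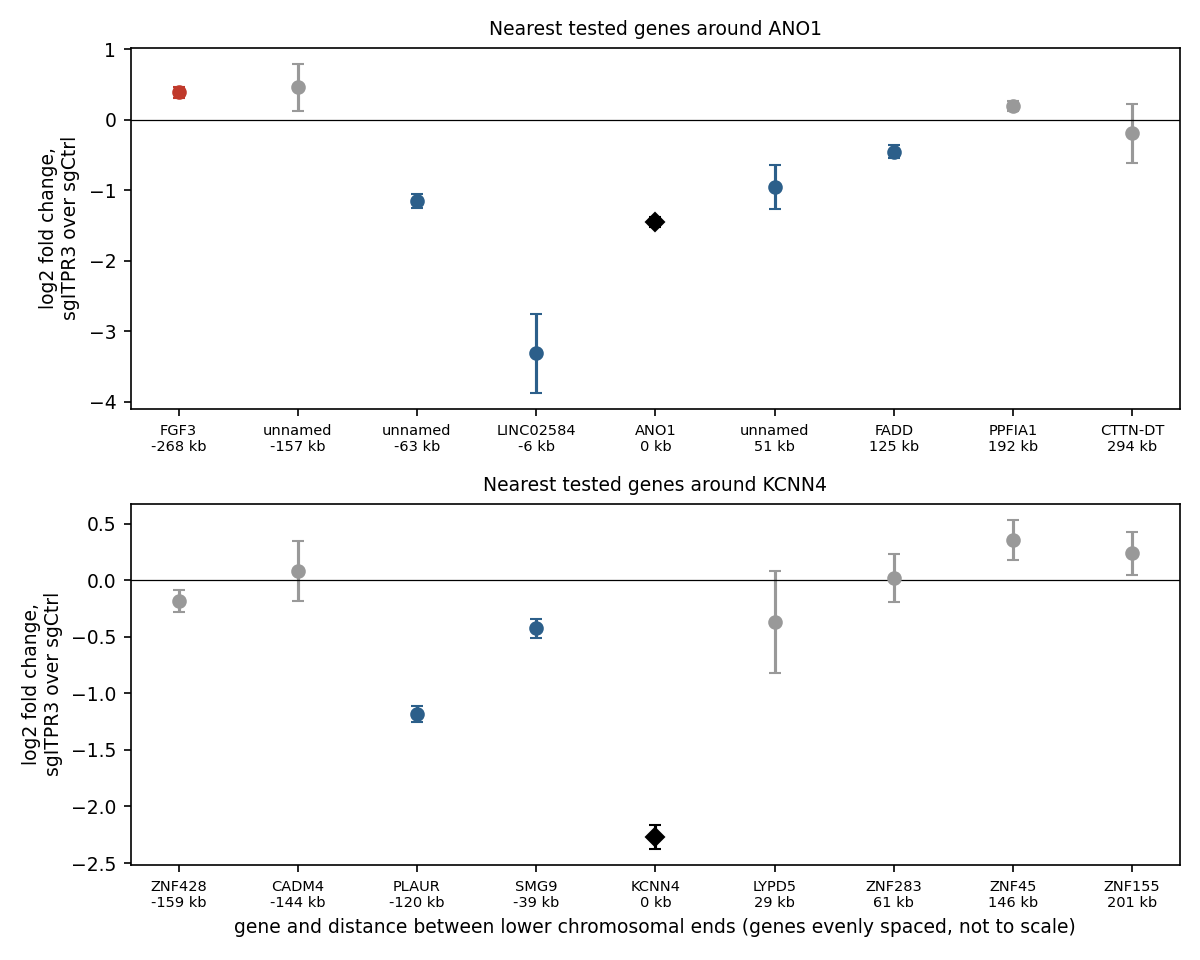
Log2 fold change of sgITPR3 over sgCtrl with its SE for ANO1 (top) and KCNN4 (bottom), as black diamonds, and for the 4 tested genes nearest on each side, in chromosomal order and evenly spaced, with the distance between the lower ends of the genes in kb. Blue genes were called lower, red higher and grey did not pass. PLAUR stands at -1.18 near KCNN4, and the lowest point beside ANO1, LINC02584, is a fitted value from very few counts in sgITPR3.

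Genes whose levels followed ANO1 and KCNN4 most closely were found over the 6 libraries, by Pearson correlation of log2(CPM + 0.1) among the 10632 genes that averaged 5 CPM or more. For ANO1 these were VCL, the vinculin gene (66.4 ± 1.92 CPM in sgITPR3 and 99.5 ± 2.98 CPM in sgCtrl), APOBEC3G, ADIRF, NT5E and ESYT2, with r from 0.9987 to 0.9990. For KCNN4 they were WNT9A, a Wnt ligand gene (6.38 ± 0.996 CPM in sgITPR3 and 23.8 ± 0.572 CPM in sgCtrl), the unnamed gene ENSG00000285517, IGFBP3, PAX8-AS1 and NTSR1, with r from 0.9982 to 0.9996. The 6 libraries fall into 2 groups, so any gene with a clean fall scores high: 10.9% of the genes had r above 0.9 with ANO1 and 10.7% with KCNN4. Between ANO1 and KCNN4 themselves r was 0.993, and between ANO1 and KCNMA1 0.939.

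Markers of other cells that use these channels were low. The 6 markers of smooth muscle and of the pacemaker (Cajal) cells of the gut wall, which use KCNMA1 and ANO1, summed to 16.7 to 18.4 CPM in the sgITPR3 libraries and 13.2 to 15.4 CPM in the sgCtrl libraries, most of it ACTA2. KIT, which defines the Cajal cells, had 9, 8 and 2 counts in sgITPR3 and 1, 6 and 4 counts in sgCtrl, and MYH11 had at most 4 counts in any library. The 8 blood cell markers, listed since T cells and red cells use KCNN4, summed to 3.04 to 3.71 CPM in the sgITPR3 libraries and 2.56 to 2.69 CPM in the sgCtrl libraries. PTPRC had 7, 0 and 0 counts in sgITPR3 and no count in sgCtrl. The 8 fibroblast and endothelial markers summed to 9.15 to 11.1 CPM and 6.51 to 7.15 CPM in the same order. Within these lists HBA1 (1.22 ± 0.485 CPM in sgITPR3 and 0.175 ± 0.137 CPM in sgCtrl), DES (3.89 ± 0.437 and 1.68 ± 0.720 CPM) and COL1A1 (7.82 ± 0.885 and 5.61 ± 0.173 CPM) rose by the edgeR test. The DES call ended with ALB in the model (edgeR adjusted p = 0.146). That of COL1A1 ended with ALB in the model (0.214) and without sgITPR3 replicate 1 (0.132) or 2 (0.105) or sgCtrl replicate 1 (0.0628), 2 (0.0573) or 3 (0.0833), all edgeR adjusted p. The part of these cells in the levels of the 8 genes was not tested.

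Hepatocyte RNA was checked against the 8 genes as well. With ALB in the model the fold change on the log2 scale was -1.42 for ANO1, -2.22 for KCNN4, -0.54 for KCNMA1 (edgeR adjusted p = 0.00106) and 0.48 for ANO10 (edgeR adjusted p = 0.0242). It was -0.06 for ANO6, -0.27 for ANO9, 0.21 for TRPM4 and 0.76 for BEST1. None of these passed (edgeR adjusted p = 0.741, 0.325, 0.707 and 0.522 in that order). Across all 13 alternative settings the log2 fold change lay between -1.48 and -1.40 for ANO1 and between -2.40 and -2.21 for KCNN4. KCNMA1 and ANO10 passed in all 13, between -0.74 and -0.54 and between 0.39 and 0.53.

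**Figure D5:**
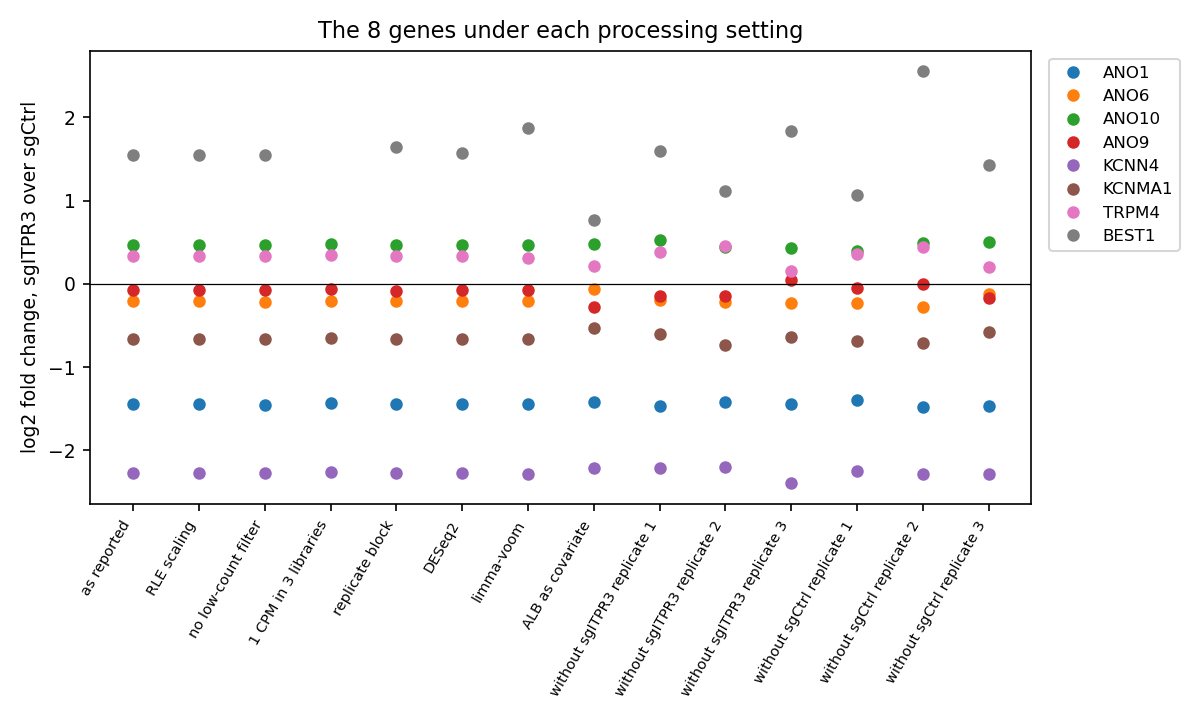
Log2 fold change of sgITPR3 over sgCtrl for each of the 8 genes under the reported setting (far left) and 13 alternatives, on a linear axis. Each point is 1 fit. ANO1 stays between -1.48 and -1.40 and KCNN4 between -2.40 and -2.21, while BEST1 ranges from 0.76 to 2.55 and has no value under the filter of 1 CPM in 3 libraries.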

How the data were processed

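The deposited gene counts of 6 libraries (3 sgITPR3, 3 sgCtrl) were analysed. The authors named STAR 2.6.0a, featureCounts 1.6.3, DESeq2 and GRCh38, per the submitters' processing notes. How strand, mouse reads and multiply aligned reads were handled, and the annotation release, are not given in those notes. Positions came from GENCODE 29.

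Counts were analysed in R 4.3.3 with edgeR 4.0.16. Genes were kept by filterByExpr (minimum count 10) and scaled by TMM. The quasi-likelihood F test compared sgITPR3 with sgCtrl without covariates, Benjamini-Hochberg adjusted over all 15804 genes, with 0.05 as the threshold. The SE is the absolute log2 fold change over the square root of F. The procedure was tested on simulated data.

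The members and lists were chosen with earlier results of these data known. All 8 genes are named. From each list, up to 4 passing genes with the smallest p and up to 2 others with the highest level are named, except some that are not reported here, and further genes were named after their values were seen. Alternatives were RLE scaling, no filter, 1 CPM in 3 libraries, the replicate block, ALB as a covariate, DESeq2 1.42.0, limma-voom (limma 3.58.1) and leaving out each library. Floors (3 counts) cover counting error only, while the SE also takes in the spread among libraries as fitted.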

Additional observations from a re-analysis of the deposited data

How the results depend on the processing

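The number of genes past the threshold was 3717 as reported. It was 1982 with ALB in the model and ran from 2331 to 4261 when 1 library was left out, the lowest without sgITPR3 replicate 2 and the highest without sgCtrl replicate 2. Of the 6 genes not picked for their fall, 2 passed as reported and 2 to 4 when 1 library was left out. The 4 came without sgCtrl replicate 2, where ANO6 and BEST1 also passed. The log2 fold change of ANO9 ran from -0.18 to 0.0518 when 1 library was left out, above 0 without sgITPR3 replicate 3. BEST1 has no value under the filter of 1 CPM in 3 libraries. The cause of these shifts was not tested.

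No pairing of the libraries by replicate number was detected. Deviations of same-numbered libraries from their group means correlated at -0.05, 0.01 and 0.10, and not every library correlated best with its own number. With 3 libraries per group a shared batch or mouse could be missed. With the replicate block 3877 genes and 2 of the 6 genes passed. No group exceeded 3 libraries, and TRPM4 and BEST1 rest on few counts, which limits what could be detected for them.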
